A study of Drosophila melanogaster with 5 samples.

Results

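Prestin and its relatives of the SLC26 family of anion transporters were followed through the cell types of the adult *Drosophila* Malpighian tubule (MT). The members were 7 genes fixed by name, Prestin (FBgn0036770), CG5002, CG6125, CG6928, CG7912, CG9702 and CG9717. All 7 were found among the 16495 genes of the deposited values. They were chosen by family and not by a measured value, but with earlier results of these data known. SLC26 proteins sit in the cell membrane and exchange anions such as sulfate, oxalate, chloride and bicarbonate. Fly Prestin carries oxalate and sulfate and is known for its part in calcium oxalate stones in the MT, whereas mammalian prestin is the motor protein of outer hair cells in the ear. For the other members the annotation gives only the family, and no role in the MT is stated here. Principal cells (PCs) drive secretion with a proton pump, stellate cells carry chloride and water, and renal stem cells lie in the lower part of the MT.

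Nuclei of MTs from adult females were profiled by single-nucleus RNA sequencing in 5 libraries, 1 per genotype. EGT > w1118 carried esg-GAL4, UAS-GFP and tub-GAL80ts, and EGT > yki act carried in addition UAS-yki3SA, an active form of yorkie that gives rise to gut tumors. PCts > w1118 carried CG31272-GAL4, a driver of PCs, with tub-GAL80ts. PCts > Pvr act added UAS-Pvr act and the PCts > Pvr RNAi-labelled library added UAS-Pvr RNAi, which are meant to raise or lower signaling of the PDGF/VEGF receptor Pvr in PCs. All flies carried tub-GAL80ts, a temperature-sensitive block on GAL4, were reared at 18 °C and were shifted to 29 °C, for 5 days by one label and for 8 days by another. The driver esg-GAL4 is active in intestinal stem cells and also in renal stem cells, so that EGT flies express the transgene in both. Each library pooled 90 pairs of MTs, so the spread between flies was not measured.

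The libraries held 1969 to 9367 nuclei and 10018765 to 39154127 UMIs, and the median nucleus had 1515.5 to 3889 UMIs. The authors sorted the nuclei into 17 cell types. Stellate markers (tsh, SecCl, tio, Lkr, Drip) summed to 179 to 229 UMIs per 10000 in stellate cells and to at most 33.0 in any other type. Main segment markers (Uro, List) summed to 15.0 to 20.6 in main segment PCs, but also to 11.9 to 22.1 in the nuclei named renal stem cells. The stem cell marker N stood at 0 to 2.18 in those nuclei. The cluster named lower segment PCs 2 (Pvr-act) went against its name in PCts > Pvr act, where hemocyte markers (Hml, NimC1, Ppn) summed to 100 and PC markers to 21.4. Pvr itself stood at 29.1 UMIs per 10000 over all nuclei of PCts > Pvr act, at 7.11 in PCts > w1118 and at 6.29 in the PCts > Pvr RNAi-labelled library. The mean over nuclei was 4.3 in PCts > w1118 and 4.74 in the PCts > Pvr RNAi-labelled library, so the targeted gene was not lower there by that measure. Cell barcodes shared by any 2 libraries numbered 1 to 12.

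A level below is the number of UMIs of a gene per 10000 UMIs pooled over the nuclei of a cell type in a library, with an exact Poisson 95% interval. A difference between libraries is the log2 ratio of levels with an exact conditional binomial 95% interval. Intervals cover counting error only, and a single library stood for each genotype, which allows no test across genotypes. A gene was called higher or lower from a 2-fold difference, among genes with at least 20 UMIs in both libraries together, and a count of 0 was set to 3 UMIs. PCts > w1118 against EGT > w1118 is the only measure of how far libraries without a changed pathway differ, and it includes the difference in driver. Between these controls the median absolute log2 ratio was 0.29 over all nuclei, and 95% of genes differed by at most 1.43. Levels are compared across cell types and libraries for the same gene, never between genes, because gene length and capture differ.

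The 7 genes were caught to very different extents. Over all libraries CG6125 gave 11368 UMIs, CG9717 10668, CG9702 7191, Prestin 5615, CG5002 5255, CG7912 789 and CG6928 498. A UMI of CG9717 was found in 22.7% of nuclei, of CG6125 in 15.5%, of Prestin in 12.5%, and of CG6928 and CG7912 in 2.11% each. The better caught genes were found in different parts of the MT. In the control libraries Prestin was concentrated in lower tubule PCs, CG5002 was highest in stellate cells, CG6125 and CG7912 in initial and transitional PCs. CG9717 was also highest in initial and transitional PCs. CG9717 and CG9702 were both spread over several types, among them cells outside the MT. For CG9717 tracheal cells stood at 1.14 and main segment PCs at 1.06 in EGT > w1118. In PCts > w1118 they stood at 1.62 and 0.84, with the tracheal levels from 9 UMIs each. The stacked shares of UMIs show this division of the MT between the genes, and show it replaced by the Pvr-act clusters in PCts > Pvr act.

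**Figure D1:**
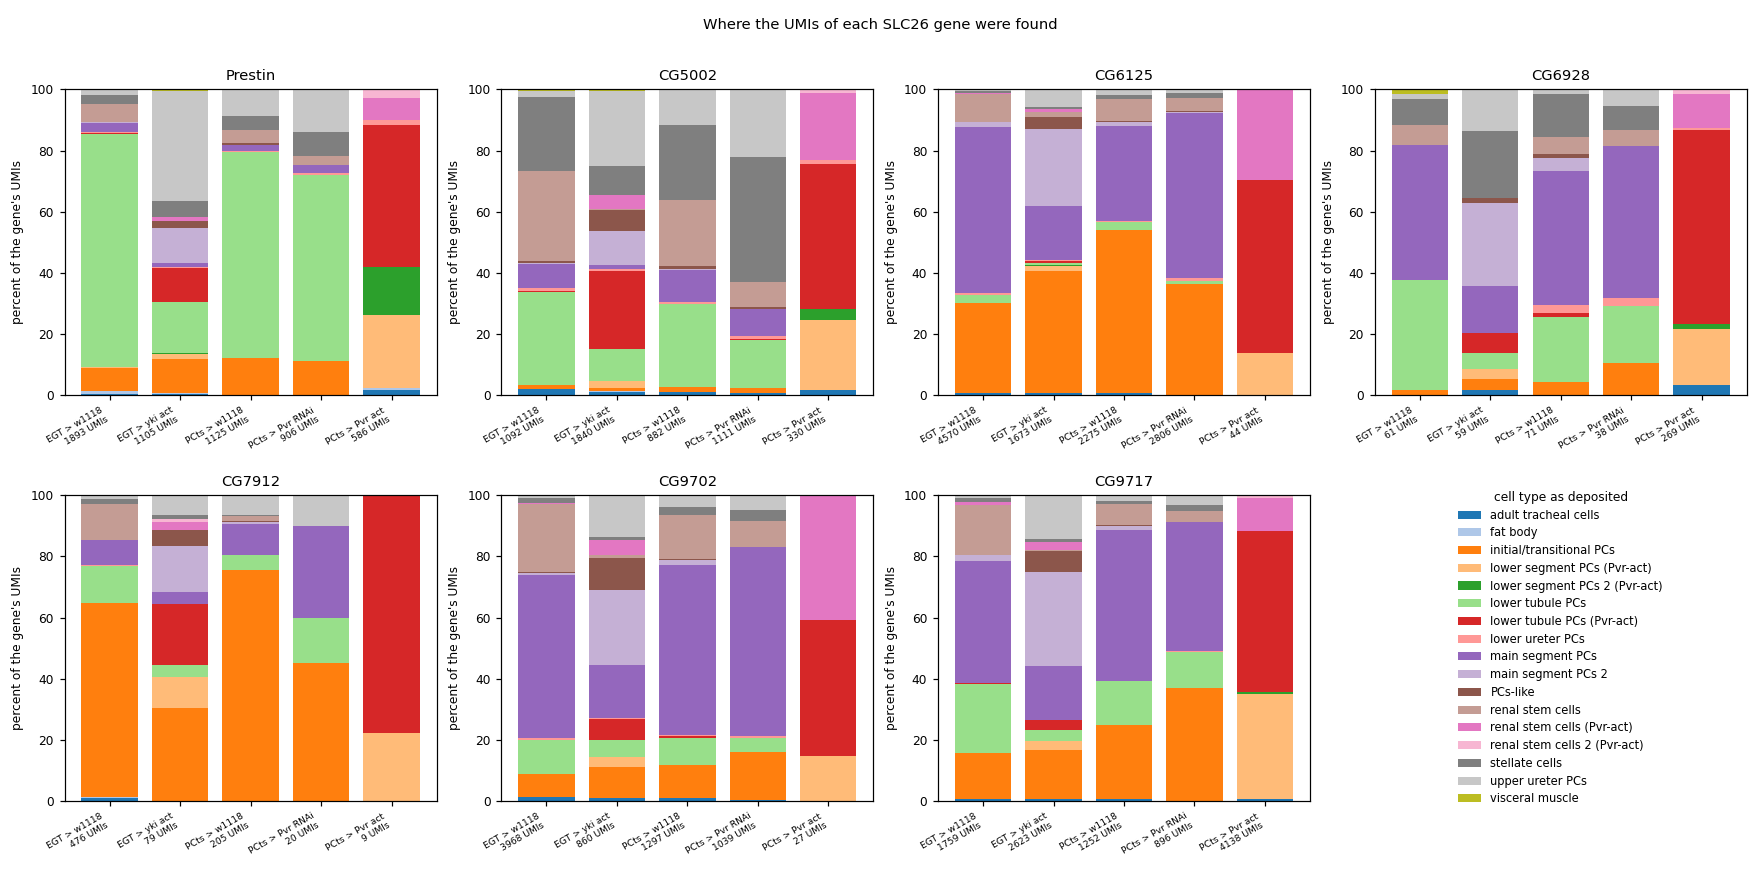
Percent of the UMIs of each SLC26 gene (y axis) found in each cell type as deposited (colors), for each library (x axis, with the number of UMIs). In EGT > w1118 lower tubule PCs held 76.5% of Prestin UMIs and in EGT > yki act 16.8%, while nearly all UMIs of PCts > Pvr act lay in clusters named Pvr-act.

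Prestin lies on 3L from 17898889 to 17907812 on the minus strand, with 6 exons (BDGP6.54 annotation). Its level in lower tubule PCs was 3.11 UMIs per 10000 in EGT > w1118 (interval 2.95 to 3.27, 427 nuclei) and 1.35 in EGT > yki act (1.16 to 1.56, 135 nuclei). In the same cells it was 2.33 in PCts > w1118 (2.17 to 2.51, 298 nuclei) and 3.67 in the PCts > Pvr RNAi-labelled library (3.37 to 3.98, 159 nuclei). The 4 intervals did not overlap, and Yki flies had the lowest level. Levels in stellate cells were 2.03, 1.91, 1.66 and 1.85 in the same order of libraries, and their intervals overlapped. Initial and transitional PCs followed with 0.91 to 1.32 and upper ureter PCs with 0.93 to 1.20. In main segment PCs, the fluid-secreting part of the MT, Prestin was nearly missing, with 57 UMIs in EGT > w1118, 14 in EGT > yki act, 21 in PCts > w1118 and 25 in the PCts > Pvr RNAi-labelled library, or 0.03 to 0.09 per 10000.

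The order of Prestin levels was therefore lower tubule PCs, then stellate cells, then the initial, transitional and upper ureter PCs, in 3 of the 4 libraries. The exception was EGT > yki act, in which stellate cells ranked above lower tubule PCs. Lower tubule PCs and stellate cells had separate intervals in EGT > w1118 and the PCts > Pvr RNAi-labelled library and overlapping ones in EGT > yki act and PCts > w1118, and stellate cells were apart from the next type only in the PCts > Pvr RNAi-labelled library. The level in lower tubule PCs was 36.0 times that of main segment PCs in EGT > w1118 (interval 27.7 to 47.8), 14.7 times in EGT > yki act (8.55 to 27.4), 81.7 times in PCts > w1118 (53.1 to 133) and 76.6 times in the PCts > Pvr RNAi-labelled library (51.3 to 119). Against stellate cells of the same library it was 1.53, 0.71, 1.40 and 1.98 times as high. In EGT > yki act lower tubule PCs were no longer separated from upper ureter PCs, with a ratio of 1.12 (0.94 to 1.34), while the ratio was 2.52 to 3.37 in the other 3 libraries.

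Prestin was also read as the share of nuclei with a UMI. In lower tubule PCs, with a median of 8949 to 10432 UMIs per nucleus, the share was 82.4% in EGT > w1118, 57.0% in EGT > yki act, 77.9% in PCts > w1118 and 93.1% in the PCts > Pvr RNAi-labelled library. With each nucleus thinned to 500 UMIs, which puts cell types of unlike depth on a common footing, the shares were 13.6% (10.5 to 17.2), 7.41% (3.61 to 13.2), 13.1% (9.47 to 17.5) and 18.2% (12.6 to 25.1). The thinned intervals of EGT > w1118 and EGT > yki act overlapped. Thinning left out 0 nuclei of lower tubule and main segment PCs, 7 to 18 of stellate cells and 4 to 19 of tracheal cells per library. Adult tracheal cells, which lie outside the MT, were taken as the background of free RNA. They had 4.17%, 3.85% and 0% of thinned nuclei in the first 3 libraries at a median depth of 634 to 909.5 UMIs. Stellate cells were at 8.26%, 11.1% and 9.58% in those libraries, and main segment PCs at 0.13% to 1.06% in all 4. The shares of Prestin in lower tubule PCs and stellate cells were above those of tracheal cells in each of these libraries, and those in main segment PCs were at or below it in 2 of them and at 0.13% against 0% in PCts > w1118, so that no expression of Prestin can be read in the main segment.

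Prestin was 2.30-fold lower in lower tubule PCs of EGT > yki act than of EGT > w1118, a log2 ratio of -1.20 (-1.43 to -0.98), where 17.7% of the 7098 genes tested in these cells were called in either direction. Against PCts > w1118 the log2 ratio was -0.79, and the controls differed from each other by -0.41 (-0.54 to -0.28). The other large groups of nuclei with Prestin showed no 2-fold difference. The log2 ratio was -0.46 (-0.81 to -0.10) in initial and transitional PCs, -0.09 (-0.64 to 0.45) in stellate cells and 0.26 (-0.29 to 0.87) in upper ureter PCs. Main segment PCs 2, a cluster that was large in Yki flies with 325 nuclei and small in EGT > w1118 with 36, had 0.31 against 0.13, a log2 ratio of 1.24 (0.08 to 2.72). For renal stem cells the value of -1.30 rested on 1 UMI and had an interval from -6.62 to 1.21. Over all nuclei Prestin stood at 0.65 in EGT > yki act and at 1.20 in EGT > w1118, a log2 ratio of -0.89 (-1.0 to -0.78), which was under the 2-fold limit. Lower tubule PCs numbered 427 nuclei in the control and 135 in Yki flies, so this value holds fewer nuclei and less RNA per nucleus together, and over all nuclei these cannot be told apart.

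**Figure D2:**
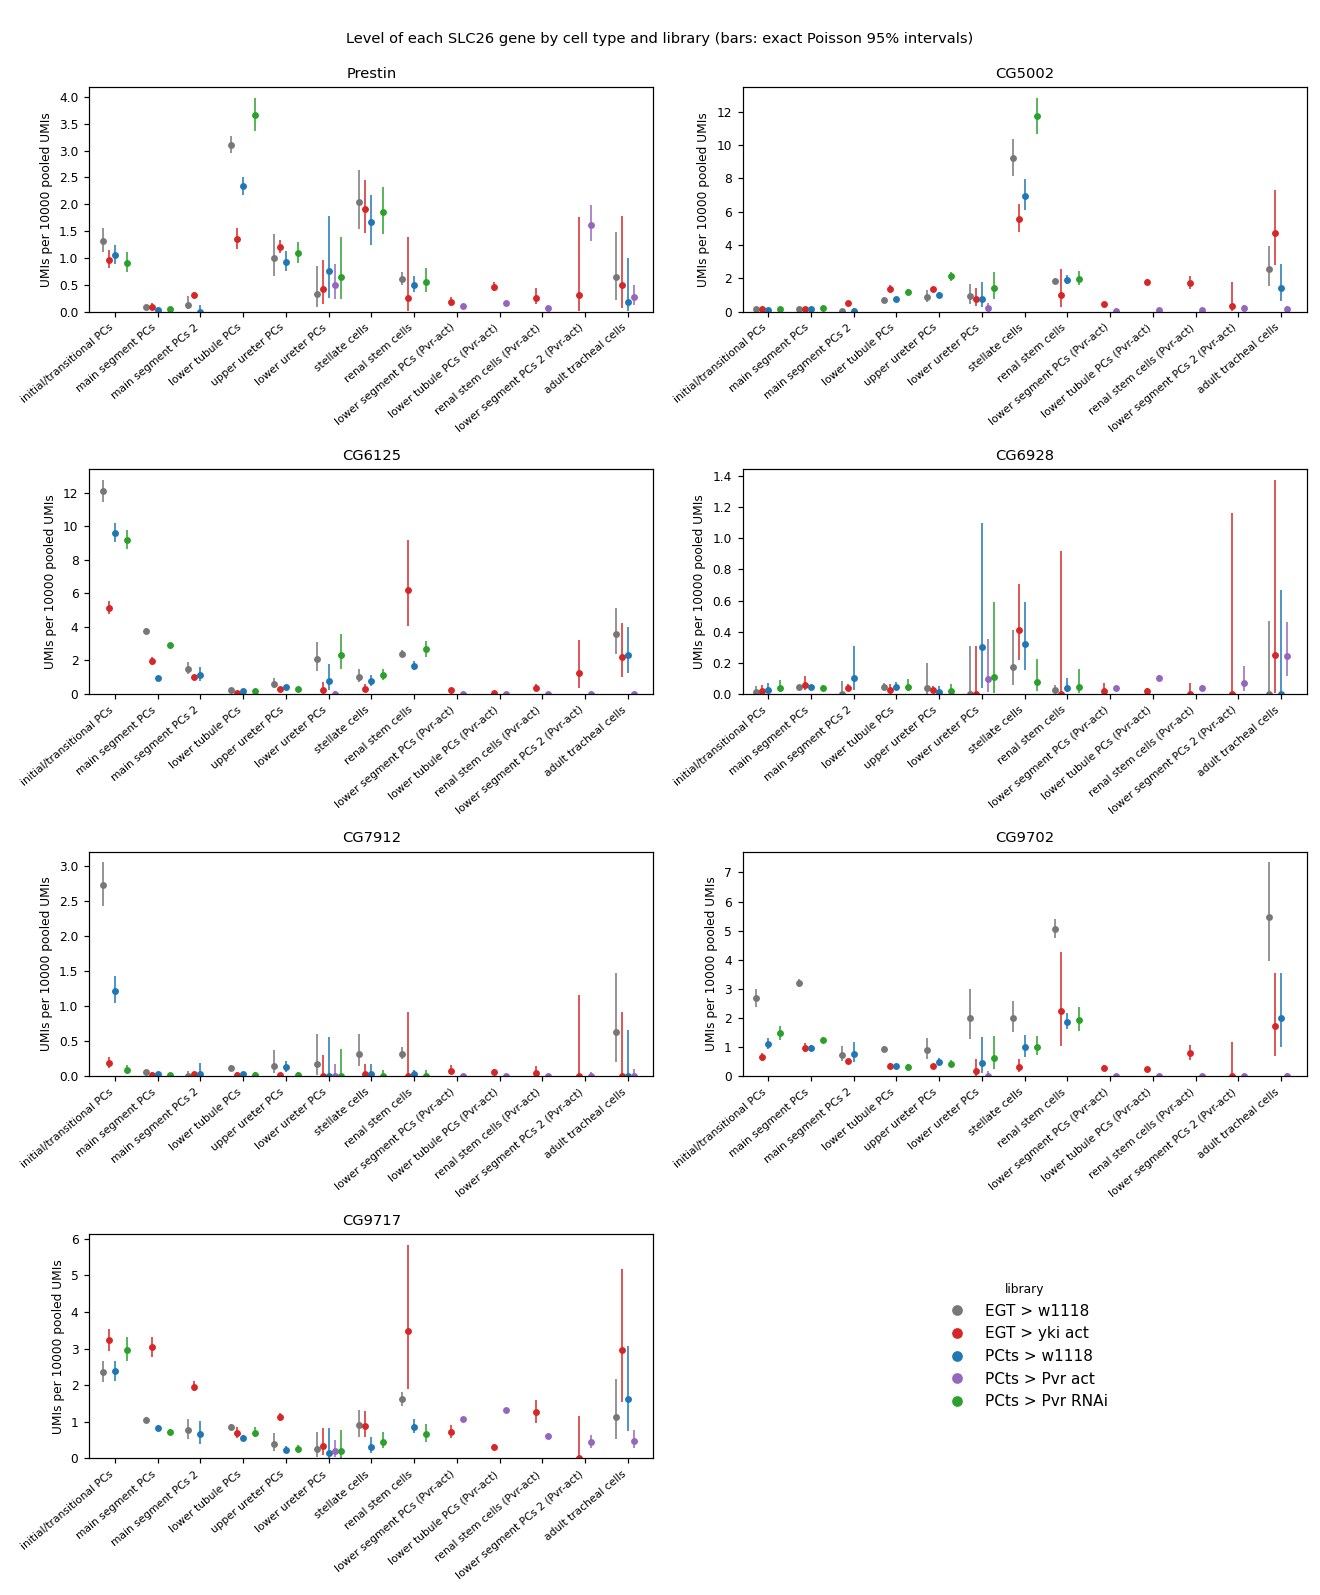
Level of each SLC26 gene (y axes, UMIs per 10000 pooled UMIs) by cell type (x axes) and library (colors), for cell types with at least 20 nuclei in the library. Points are levels and bars exact Poisson 95% intervals of counting error. The Prestin panel shows 3.11 and 1.35 in lower tubule PCs of EGT > w1118 and EGT > yki act, and levels of 1.66 to 2.03 in stellate cells of 4 libraries.

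Prestin in lower tubule PCs was lower in Yki flies than in EGT > w1118 at every depth, by least in the shallowest nuclei. With the nuclei of a library divided by total UMIs into 4 groups of equal size, the levels from the shallowest to the deepest group were 3.07, 3.24, 3.29 and 2.95 in EGT > w1118. In EGT > yki act they were 1.97, 1.24, 1.29 and 1.31. The other libraries kept to their own levels too, with 2.61, 2.28, 2.43 and 2.20 in PCts > w1118 and 3.69, 3.92, 3.62 and 3.55 in the PCts > Pvr RNAi-labelled library. The mean over nuclei, which gives each nucleus the same weight, was 3.15, 1.51, 2.36 and 3.69 in the same order.

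Prestin showed no 2-fold difference between the PCts > Pvr RNAi-labelled library and its control in the cell types compared. The largest difference with over 50 UMIs in each library was in lower tubule PCs, with a log2 ratio of 0.65 (0.49 to 0.81) against PCts > w1118, under the 2-fold limit. Stellate cells gave 0.15 (-0.38 to 0.70), upper ureter PCs 0.23 (-0.16 to 0.63) and initial and transitional PCs -0.21 (-0.60 to 0.17).

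In PCts > Pvr act Prestin was at 0.15 over all nuclei, against 0.76 in PCts > w1118, a log2 ratio of -2.35 (-2.49 to -2.20). The value was -0.0015 when the 3 cell types with enough nuclei in both libraries weighed the same. These were lower ureter PCs, adult tracheal cells and visceral muscle, with 10, 10 and 1 Prestin UMIs in PCts > Pvr act. PCts > w1118 had 5, 1 and 0 there, so this alternative is too sparse to decide on the call. This library had 0 nuclei named lower tubule PCs, main segment PCs or renal stem cells, and its PCs lay in clusters named after Pvr act, so each comparison over its nuclei mixes the level with the change of cell types. In lower tubule PCs (Pvr-act) Prestin was at 0.16 from 271 UMIs in 1681 nuclei, and in lower segment PCs (Pvr-act) at 0.11 from 141 UMIs. The 170 Yki nuclei that were assigned to lower tubule PCs (Pvr-act) held 122 Prestin UMIs, a level of 0.46. The highest level in PCts > Pvr act was in the cluster named lower segment PCs 2 (Pvr-act), with 1.62 (1.31 to 1.99) from 92 UMIs in 725 nuclei, and this is the cluster with hemocyte markers. Without that cluster the log2 ratio over all nuclei was -2.57, and the part of these cells in the remaining difference was not tested.

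CG5002 was the well caught member with its highest level in stellate cells. It lies on arm 2R with 9 exons. Its level in stellate cells was 9.19 in EGT > w1118 (8.11 to 10.4, 262 UMIs), 5.56 in EGT > yki act (175 UMIs), 6.97 in PCts > w1118 (218 UMIs) and 11.7 in the PCts > Pvr RNAi-labelled library (10.7 to 12.9, 457 UMIs). The level of stellate cells was 35.4 to 70.7 times that of main segment PCs and 4.04 to 13.0 times that of lower tubule PCs in the same library. After thinning to 500 UMIs, 37.2%, 32.5%, 29.3% and 37.9% of stellate nuclei had a UMI of CG5002, and 8.33%, 15.4% and 7.14% of tracheal nuclei in the first 3 libraries. Tracheal nuclei of EGT > yki act, of which there were 30, stood at 4.69 from 19 UMIs, so that stellate cells were only 1.19 times as high there (0.74 to 2.02). The type that carries stellate markers thus held 24.0% of all CG5002 UMIs in EGT > w1118, 9.51% in EGT > yki act, 24.7% in PCts > w1118 and 41.1% in the PCts > Pvr RNAi-labelled library.

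In Yki flies CG5002 was lower where it was strongest and higher in some PC types. The log2 ratio of EGT > yki act to EGT > w1118 was -0.73 (-1.01 to -0.44) in stellate cells, 0.96 (0.69 to 1.22) in lower tubule PCs and 0.67 (0.07 to 1.32) in upper ureter PCs, each under the 2-fold limit. In main segment PCs 2 it was 4.57 (2.08 to 9.88), from 209 UMIs against 1. Other PC types had intervals across 0. Main segment PCs gave 0.27 (-0.44 to 0.94) and initial and transitional PCs 0.12 (-0.97 to 1.24). Nuclei named PCs-like gave -0.16 (-1.19 to 1.08) and lower ureter PCs -0.31 (-1.76 to 1.10). Stellate cells of the controls differed by -0.40 (-0.67 to -0.14), and lower tubule PCs of the controls by 0.05. In the PCts > Pvr RNAi-labelled library the gene was higher than in PCts > w1118 in upper ureter PCs, with 2.11 against 0.97 and a log2 ratio of 1.13 (0.79 to 1.48), and in stellate cells by 0.75 (0.51 to 0.99). Of the 5761 genes tested in upper ureter PCs 9.34% were called in that comparison. In PCts > Pvr act it stood at 0.08 over all nuclei against 0.60, a log2 ratio of -2.82 (-3.01 to -2.64), and that library held 1 stellate nucleus against 181 in PCts > w1118.

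CG6125 marked the far end of the MT. It lies on 3R from 15402598 to 15407070 on the minus strand with 6 exons, and the noncoding antisense RNA asRNA:CR46058 overlaps it on the other strand. In initial and transitional PCs its level was 12.1 in EGT > w1118 (11.5 to 12.8, 1338 UMIs), 5.13 in EGT > yki act (4.75 to 5.54, 672 UMIs), 9.62 in PCts > w1118 (1218 UMIs) and 9.17 in the PCts > Pvr RNAi-labelled library (1020 UMIs). The level there was 47.5 to 70.9 times that in lower tubule PCs in all 4 libraries. This is the reverse of Prestin, which was higher in lower tubule PCs than in initial and transitional PCs, by 1.40 to 4.04 times. After thinning, 17.5% to 48.6% of initial and transitional nuclei held a UMI of CG6125, and 9.52% to 12.5% of tracheal nuclei.

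Main segment PCs showed how much a CG6125 level can move between libraries without a changed pathway. The level was 3.76 in EGT > w1118 (2487 UMIs, 544 nuclei) but 0.96 in PCts > w1118 (705 UMIs, 747 nuclei), a log2 ratio between the controls of -1.97 (-2.09 to -1.85). It was 1.95 in EGT > yki act and 2.91 in the PCts > Pvr RNAi-labelled library, so both lay between the controls. As a result the PCts > Pvr RNAi-labelled library was higher than its own control, with a log2 ratio of 1.60 (1.47 to 1.73), and lower than the other control by -0.37, and 15.9% of the 7548 genes tested in main segment PCs were called in that comparison. From the shallowest to the deepest of the same 4 groups of main segment nuclei the level was 2.88, 3.18, 4.07 and 4.11 in EGT > w1118 and 0.54, 0.74, 1.03 and 1.24 in PCts > w1118, so the controls were apart at every depth. In the PCts > w1118 library, main segment PCs had 0.41 times the level of tracheal cells and a thinned share of 4.55% against 9.52%. The tracheal level of 2.34 rested on 13 UMIs and was above the 1.54 over all nuclei, so it cannot stand for free RNA alone. The part of free RNA in the main segment was not tested. The antisense RNA was at 0.15 in EGT > w1118 and at 0.03 in PCts > w1118 in these cells, and its part in the difference was not tested.

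In Yki flies CG6125 was lower than in EGT > w1118 in most cell types. The log2 ratio was -1.24 (-1.37 to -1.10) in initial and transitional PCs, -1.79 (-2.89 to -0.86) in lower tubule PCs, -1.0 (-1.78 to -0.14) in upper ureter PCs, -1.68 (-2.88 to -0.60) in stellate cells and -3.08 (-5.45 to -1.37) in lower ureter PCs. The value in lower ureter PCs rested on 3 UMIs against 25, and the controls differed in those cells by -1.46 (-3.20 to -0.05). In initial and transitional PCs 15.1% of 5227 genes were called, and the difference was -0.91 against PCts > w1118. The controls differed there by -0.33 (-0.44 to -0.22). The nuclei named renal stem cells went the other way, with 6.22 against 2.39 and a log2 ratio of 1.38 (0.73 to 1.96), from 25 UMIs in the 30 nuclei of that name in EGT > yki act. Over all nuclei the ratio was -1.56 (-1.64 to -1.48), and it was -0.73, under the 2-fold limit, when 12 cell types weighed the same. In PCts > Pvr act the whole library of 9367 nuclei held 44 UMIs of CG6125, against 2275 in the 3015 nuclei of PCts > w1118, a log2 ratio of -7.10 (-7.56 to -6.67), and initial, transitional and main segment PCs had 0 nuclei in it.

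**Figure D3:**
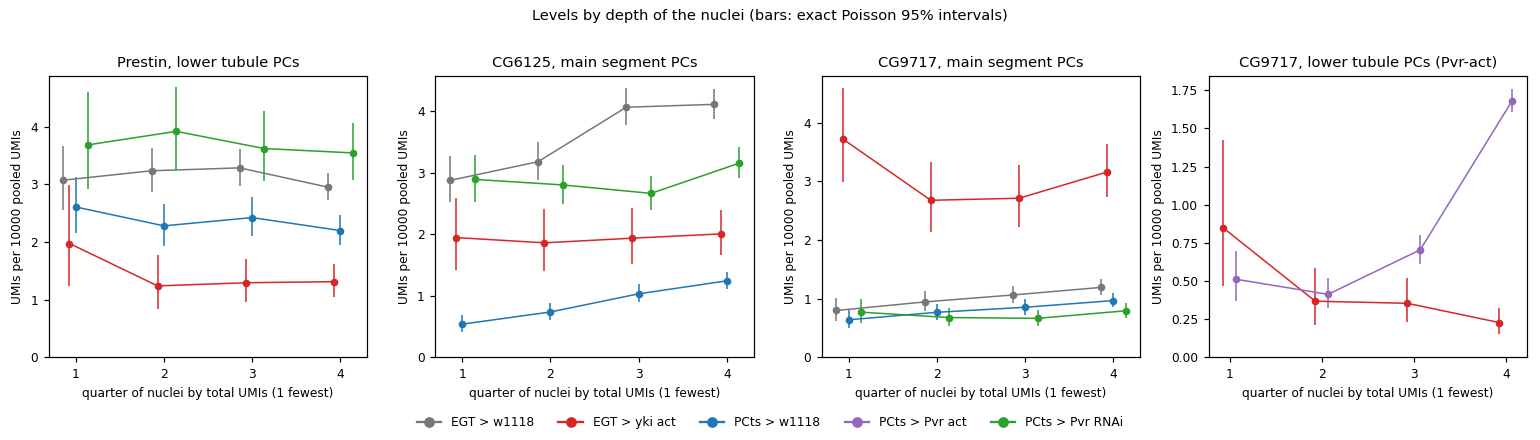
Levels (y axes, UMIs per 10000 pooled UMIs, bars exact Poisson 95% intervals) in 4 equal groups of the nuclei of a library ordered by total UMIs (x axes), for Prestin in lower tubule PCs, CG6125 and CG9717 in main segment PCs, and CG9717 in lower tubule PCs (Pvr-act). Prestin was at 2.95 to 3.29 in EGT > w1118 and 1.24 to 1.97 in EGT > yki act, while CG9717 in PCts > Pvr act was at 0.51 in the shallowest and 1.68 in the deepest group.

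CG9702 and CG9717 are neighbors on 3R. CG9702 runs from 30579429 to 30582117 on the plus strand with 3 exons, CG9717 from 30584020 to 30587302 on the minus strand with 4 exons, and 1902 bases separate them. Their levels in main segment PCs did not move together across libraries. CG9702 was at 3.19 in EGT > w1118 (2113 UMIs), 0.97 in EGT > yki act (148 UMIs), 0.98 in PCts > w1118 (722 UMIs) and 1.23 in the PCts > Pvr RNAi-labelled library (643 UMIs). CG9717 was at 1.06 (699 UMIs), 3.04 (464 UMIs), 0.84 (616 UMIs) and 0.73 (381 UMIs) in the same order. For CG9702 EGT > w1118 stood above the other 3 libraries, and for CG9717 EGT > yki act did.

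For CG9702 in main segment and lower tubule PCs the gut tumor comparison was of the size of the difference between the controls. EGT > yki act was lower than EGT > w1118 in main segment PCs by a log2 ratio of -1.72 (-1.97 to -1.48), PCts > w1118 was lower than EGT > w1118 by -1.70 (-1.83 to -1.58), and EGT > yki act against PCts > w1118 gave -0.02. The same held in lower tubule PCs, with -1.46 (-1.92 to -1.02) against EGT > w1118 and -0.08 against PCts > w1118. In initial and transitional PCs the values were -2.03 (-2.39 to -1.68) and -0.75, with 0.66 in EGT > yki act, 2.69 in EGT > w1118 and 1.11 in PCts > w1118. In stellate cells the gut tumor comparison went further than the controls. It gave -2.65 (-3.79 to -1.67) against EGT > w1118, from 10 UMIs against 57, and the controls differed by -1.01. In the PCts > Pvr RNAi-labelled library CG9702 was close to its control in main segment PCs, with a log2 ratio of 0.33 (0.17 to 0.48).

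The place of CG9702 was not clear from these nuclei. Adult tracheal cells had 5.45 in EGT > w1118 (43 UMIs), 1.73 in EGT > yki act (7 UMIs) and 1.98 in PCts > w1118 (11 UMIs), and main segment PCs of the same libraries had 0.59, 0.56 and 0.50 times those levels. After thinning, 13.4%, 5.32% and 5.49% of main segment nuclei and 16.7%, 3.85% and 7.14% of tracheal nuclei held a UMI. The share in main segment PCs was at or below that of tracheal cells in both control libraries. The tracheal levels were above the 2.52 over all nuclei of EGT > w1118 and the 0.88 of PCts > w1118, so they cannot stand for free RNA alone. The part of free RNA in the main segment was not tested. The nuclei named renal stem cells, which carried main segment markers, had 5.06 in EGT > w1118 and 1.88 in PCts > w1118. The level in main segment PCs was still 2.73 to 3.93 times that in lower tubule PCs of the same library.

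CG9717 was higher in main segment PCs of Yki flies. Its level in main segment PCs was 2.87-fold higher in EGT > yki act than in EGT > w1118, a log2 ratio of 1.52 (1.35 to 1.69), higher than 98.5% of the genes tested in these cells, of which 14.7% were called. The controls differed by -0.33 (-0.49 to -0.18). The share of main segment nuclei with a UMI was 55.0% in EGT > w1118, 92.6% in EGT > yki act, 49.8% in PCts > w1118 and 41.7% in the PCts > Pvr RNAi-labelled library, at median depths of 11479.5, 14606, 9678 and 8377 UMIs. From shallow to deep groups of nuclei the level in EGT > yki act was 3.72, 2.68, 2.71 and 3.16 and in EGT > w1118 0.80, 0.94, 1.06 and 1.19, so Yki flies were higher at every depth. After thinning the shares were 9.57% in EGT > yki act and 6.07% in EGT > w1118. Tracheal nuclei of EGT > yki act stood at 11.5% after thinning and at a level of 2.96, from 12 UMIs in 30 nuclei, and tracheal nuclei of EGT > w1118 at 2.08% and 1.14, a log2 ratio of 1.38 (0.00 to 2.80). Main segment PCs of EGT > yki act were thus not clearly above tracheal cells of their own library in level or thinned share. The tracheal level was above the 1.54 over all nuclei of that library, so it cannot stand for free RNA alone. How much of the main segment level was free RNA was not tested. In the same library lower tubule PCs were at 0.70 and stellate cells at 0.89.

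The difference of CG9717 was not the same in every cell type of Yki flies. Upper ureter PCs had 1.13 against 0.39, a log2 ratio of 1.52 (0.66 to 2.53), and main segment PCs 2 had 1.97 against 0.78, a ratio of 1.34 (0.86 to 1.86). The nuclei named renal stem cells gave 1.11 (0.22 to 1.88) from 14 UMIs in EGT > yki act, and those named PCs-like gave 2.37 (0.50 to 5.43) from 180 UMIs against 2. Initial and transitional PCs, where the gene was highest in the controls with 2.36 and 2.39, gave 0.45 (0.22 to 0.68), and lower tubule PCs gave -0.29 (-0.63 to 0.03). Through this the main segment reached the level of the initial and transitional PCs in EGT > yki act, with a ratio between them of 1.06 (0.93 to 1.21), while it was 2.23 in EGT > w1118, 2.85 in PCts > w1118 and 4.07 in the PCts > Pvr RNAi-labelled library.

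CG9717 was also the only well caught member that was not lower in PCts > Pvr act. It stood at 1.06 over all nuclei from 4138 UMIs, against 0.85 in PCts > w1118 from 1252 UMIs, a log2 ratio of 0.32 (0.23 to 0.41). Among its clusters, lower tubule PCs (Pvr-act) had 1.32 from 2177 UMIs, lower segment PCs (Pvr-act) 1.08 from 1431 UMIs and renal stem cells (Pvr-act) 0.60 from 447 UMIs. These UMIs were held by few nuclei. Of the 1681 nuclei of lower tubule PCs (Pvr-act), 55 with at least 10 UMIs each held 1379 of the 2177 UMIs, or 63.3%, and 1 nucleus held 93. The level was 0.51, 0.41, 0.70 and 1.68 from the shallowest to the deepest group, and the mean over nuclei was 0.78. The 170 Yki nuclei of the same cluster had 0.32 from 86 UMIs.

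CG7912 was found in few nuclei, and in initial and transitional PCs it was far lower in Yki flies and in the PCts > Pvr RNAi-labelled library than in the controls. It lies on 3R from 30006034 to 30009189 on the minus strand with 8 exons, and Nlp overlaps it on the other strand. In initial and transitional PCs it gave 302 UMIs in EGT > w1118, a level of 2.73 (2.43 to 3.06), and 24 in EGT > yki act, a level of 0.18 (0.12 to 0.27). It gave 155 UMIs in PCts > w1118, a level of 1.22 (1.04 to 1.43), and 9 in the PCts > Pvr RNAi-labelled library, a level of 0.08 (0.04 to 0.15). Both control libraries were thus above both other libraries, with no overlap of intervals. The level in these cells was 47.5 times that in main segment PCs in EGT > w1118 and 42.9 times in PCts > w1118. Thinned shares of initial and transitional nuclei were 12.6%, 0.625%, 5.43% and 0.379% in the order EGT > w1118, EGT > yki act, PCts > w1118 and the PCts > Pvr RNAi-labelled library, and 0% of tracheal nuclei held a UMI in the first 3.

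The log2 ratio of CG7912 in initial and transitional PCs was -3.90 (-4.56 to -3.30) for EGT > yki act against EGT > w1118 and -3.92 (-5.07 to -2.96) for the PCts > Pvr RNAi-labelled library against PCts > w1118. In the latter comparison 13.5% of the 5214 genes tested in these cells were called. The controls differed by -1.16 (-1.45 to -0.87), PCts > w1118 being lower. Nlp was at 0.80, 1.05, 0.55 and 0.63 in these cells in the same order of libraries, and so did not move with CG7912. In PCts > Pvr act 9 UMIs were found in the whole library, against 205 in PCts > w1118, a log2 ratio of -5.91 (-7.06 to -4.96), and initial and transitional PCs had 0 nuclei in it.

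CG6928 was scarcely caught. It lies on 3L from 12003155 to 12008051 on the plus strand with 6 exons. The libraries held 61, 59, 71 and 38 UMIs, and PCts > Pvr act held 269, or 0.03 to 0.07 per 10000 over all nuclei. Its log2 ratios over all nuclei were -0.16 (-0.70 to 0.38) for the gut tumor, 0.52 (0.13 to 0.91) for Pvr activation and -0.34 (-0.95 to 0.25) for the PCts > Pvr RNAi-labelled library. In stellate cells CG6928 was at 0.18 from 5 UMIs in EGT > w1118 and at 0.41 from 13 UMIs in EGT > yki act. It was at 0.32 from 10 UMIs in PCts > w1118 and at 0.08 from 3 UMIs in the PCts > Pvr RNAi-labelled library. Main segment PCs of these libraries had 0.04 to 0.06. In lower tubule PCs (Pvr-act) of PCts > Pvr act CG6928 gave 171 UMIs, a level of 0.10. In lower tubule PCs of Yki flies it was past the 2-fold limit with a log2 ratio of -1.12, but from 3 UMIs against 22 and with an interval of -3.50 to 0.62, so that its direction was not resolved at this depth.

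Counted together, more members were lower than higher in Yki flies. Over all nuclei 3 of the 7 were called lower in EGT > yki act against EGT > w1118 (CG6125, CG7912 and CG9702) and 0 higher, where 19.2% of all 9109 genes were called, 11.8% higher and 7.34% lower. The median log2 ratio was -0.89 for the members and 0.14 for all genes. In lower tubule PCs 5 of 7 were called lower (Prestin, CG6125, CG6928, CG7912 and CG9702), where 9.14% of genes were, and the call of CG6928 has the interval across 0 given above. In initial and transitional PCs 3 of the 6 tested were called lower, where 7.86% of genes were. In main segment PCs CG9717 was called higher and CG7912 and CG9702 lower, where 3.8% of genes were called higher and 10.9% lower, and CG7912 rested on 3 UMIs there. In upper ureter PCs 1 of the 5 tested was called higher (CG9717) and 2 lower (CG6125 and CG9702), where 19.4% of 6484 genes were called in either direction. In stellate cells CG6125 and CG9702 were called lower of the 5 tested, where 16.6% of 3078 genes were called.

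Between the control libraries 2 of the 7, CG7912 and CG9702, were also called lower over all nuclei in PCts > w1118, where 9.61% of all 8830 genes were called, and the median of the members was -0.66 against -0.07 for all genes. Among main segment PCs 4 of 7 were called lower between the controls (Prestin, CG6125, CG7912 and CG9702), where 10.3% of 7697 genes were called. For Prestin, and for CG6125 and CG9702 in at least 1 of the controls, these cells did not exceed tracheal cells of the same library in level. The call of Prestin thus compares values at or near background. For CG6125 and CG9702 the tracheal level cannot stand for free RNA alone, so it leaves undecided whether their calls do. EGT > w1118 was thus the library with the highest levels of CG6125, CG7912 and CG9702 in most types, and the gut tumor comparison of these genes rests on it. With PCts > w1118 as the control, CG6125 and CG9702 were under the 2-fold limit over all nuclei, with log2 ratios of -0.65 and -0.80. Among the differences of over 2-fold against either control were CG7912 in initial and transitional PCs and CG9717 in main segment PCs. CG6125 in stellate cells was another, at 0.32 in Yki flies against 1.02 in EGT > w1118 and 0.77 in PCts > w1118. In lower tubule PCs CG6125 was at 0.07 against 0.25 and 0.18. Both Yki values of CG6125 rested on 10 UMIs.

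**Figure D4:**
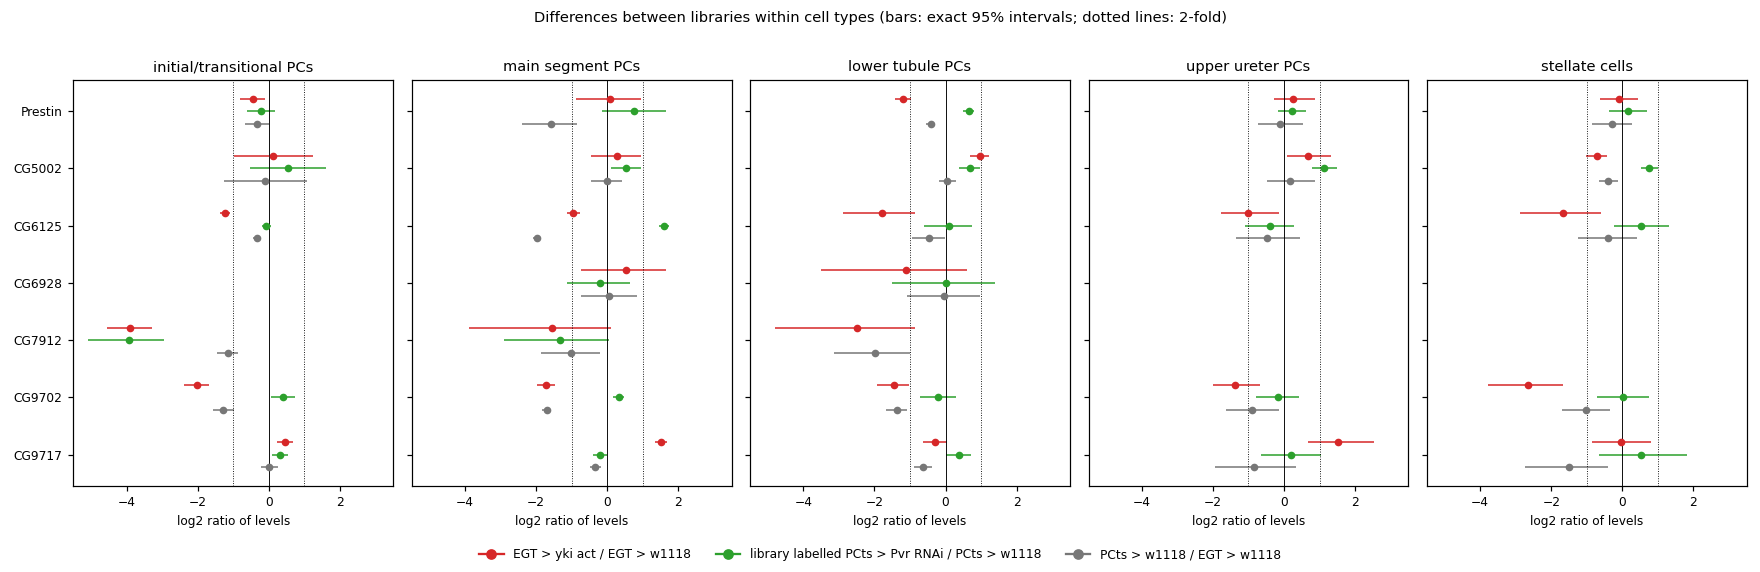
Log2 ratios of levels (x axes) of the SLC26 genes (y axis) in 5 cell types, for EGT > yki act against EGT > w1118, the PCts > Pvr RNAi-labelled library against PCts > w1118, and PCts > w1118 against EGT > w1118. Bars are exact 95% intervals of counting error and dotted lines mark a 2-fold difference. In main segment PCs CG9702 was at -1.72 for the gut tumor and -1.70 between the controls, and CG9717 at 1.52 and -0.33.

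Over all nuclei of PCts > Pvr act 5 of 7 members were called lower than in PCts > w1118 (Prestin, CG5002, CG6125, CG7912 and CG9702), where 48.5% of all 10297 genes were called and 16.4% were lower. The median was -2.82 for the members and 0.37 for all genes. Only 3 cell types had 20 nuclei in both libraries, lower ureter PCs, adult tracheal cells and visceral muscle, and there CG9717 in tracheal cells was the only member with enough UMIs, at -1.73 (-2.96 to -0.39) from 18 UMIs against 9. In the PCts > Pvr RNAi-labelled library 1 of 7, CG7912, was called lower over all nuclei, where 9.9% of all 8525 genes were called. The median was 0.24 for the members and 0.02 for all genes. Both Pvr comparisons share PCts > w1118, so a value that is high or low in that library moves them together.

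The remaining genes of the family and of anion, sulfate and stone handling were read as a list of 14. Of the other SLC26 genes, Esp gave 103 UMIs in PCts > Pvr act and 2 to 9 in each other library, a log2 ratio of 2.11 (1.13 to 3.28) against PCts > w1118. CG5404 gave 335, 514, 220 and 173 UMIs in the 4 other libraries and 134 in PCts > Pvr act, with a log2 ratio of -2.12 in that library and 0.51 in Yki flies. Over all nuclei 13 of the 14 were tested in Yki flies, and 3 were called higher and 2 lower, with a median of -0.11, where 11.8% of all genes were called higher and 7.34% lower and the median was 0.14. The higher genes were Ae2, an anion exchanger, at 2.83, the citrate transporter Indy at 1.22 and the sodium-driven anion exchanger Ndae1 at 1.16. The lower genes were NaPi-T, named for sodium-phosphate cotransport, at -2.07 and CG31674 at -1.35.

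In PCts > Pvr act all 14 were tested, 4 were called higher and 8 lower, with a median of -1.65, where 48.5% of all genes were called, 16.4% were lower and the median was 0.37. That library held 1 stellate nucleus and 0 nuclei of main segment PCs, so these values also carry the change of cell types. Ae2 was higher by 5.03, Indy by 1.31 and Papss, which makes the sulfate donor PAPS, by 1.01. Ndae1 stood at -5.76 and NaPi-T at -8.59. Agxt, which removes glyoxylate, the precursor of oxalate, was at -4.96, CG31674 at -3.33, the stellate chloride channels SecCl at -1.97 and ClC-a at -1.95, and Vha55, a subunit of the proton pump, at -1.35. Thus Ae2 and Indy were called higher, and NaPi-T and CG31674 lower, in both Yki flies and PCts > Pvr act, whereas Ndae1 was called higher in Yki flies and lower in PCts > Pvr act. In the PCts > Pvr RNAi-labelled library and between the controls, 0 of the 13 tested were called.

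The members shared patterns to different degrees over the 55 profiles of a cell type in a library with at least 20 nuclei. CG6125 and CG9702 were most alike, with a Spearman rho of 0.84, followed by Prestin and CG5002 with 0.52, CG6125 and CG9717 with 0.49, and the neighbors CG9702 and CG9717 with 0.45. Prestin had a rho of 0.00 with CG6125 and of -0.01 with CG9717. These profiles share libraries, depth and free RNA, so the values describe the libraries and no p is given.

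**Figure D5:**
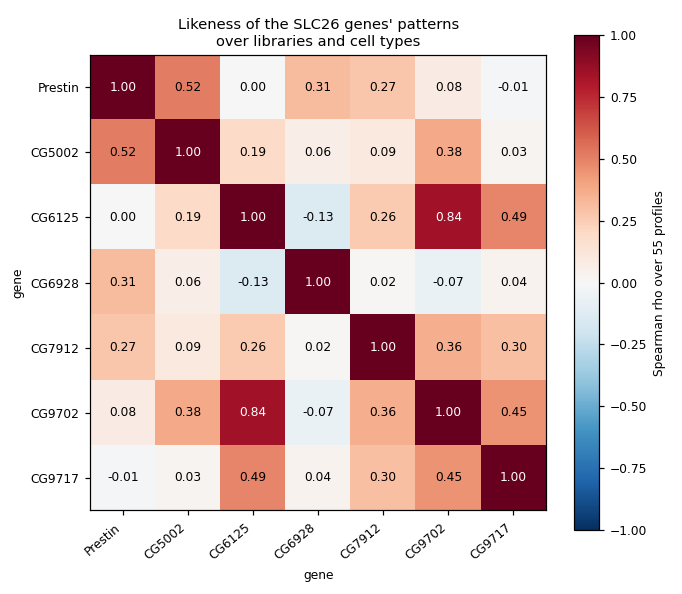
Spearman rho between the levels of each pair of SLC26 genes (x and y axes) over 55 profiles, each a cell type in a library. CG6125 and CG9702 had the highest value, 0.84, and Prestin and CG9717 were at -0.01.

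Among the 7076 genes with at least 500 UMIs, those most like Prestin were Ugt37D1 with a rho of 0.61, lncRNA:CR44641 with 0.58, Galphaf with 0.58, CG6293 with 0.57 and lncRNA:CR44758 with 0.53. For CG5002 they were CtsB, kraken and CG6602, each at 0.77. For CG6125 they were CG15406 with 0.85, CG9702 with 0.84 and CG34043 with 0.84, and for CG9702 Ugt35B1 with 0.88, Mur18B with 0.86 and CG32023 with 0.86. CG7912 came closest to CG34354 with 0.69, CG11893 with 0.65 and Glyat with 0.59. CG9717 came closest to CapaR, the receptor of the capa diuretic peptides, with 0.69, CG3168 with 0.65 and CG8837 with 0.63. The highest rho of Prestin was thus lower than that of each other member listed.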

How the data were processed

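The authors counted UMIs with Cell Ranger 7.0.0 (genome build BDGP6, per the labels), normalized them with Seurat, and deposited them on a natural log scale, as ln(1 + x) where x is a gene's UMI count scaled to a nucleus total of 10000, with a library and a cell type for each of 21371 nuclei. Filters on nuclei and the treatment of doublets are not given in the sources used here, and no nucleus was removed. UMI counts were recovered from the deposited values, as every value in 100% of nuclei was a whole multiple within 1e-06. No other sample's columns were present (0). Identifiers were matched by an Ensembl release 115 annotation (16447 matched, 48 not). UMIs were pooled per cell type (at least 20 nuclei) and library. Levels carry exact Poisson, ratios exact conditional binomial and shares exact Clopper-Pearson 95% intervals. Only the ratios and their intervals were tested on simulated data. The genes named were the 7 members, a list of 14 related genes, and the genes of highest Spearman rho with at least 500 UMIs (5 for Prestin, 3 for each other member with enough UMIs). Nlp and asRNA:CR46058 were singled out after their values were seen, as overlapping genes. Members and lists were chosen with earlier results of these data known. Alternatives were the mean over nuclei, other filters on UMIs and nuclei, centring, other sets and weights of cell types, and the other control library. Python 3.11.15, numpy 2.4.6, scipy 1.17.1 and pandas 2.3.3 were used. Protein alignments and a promoter motif search were planned and not run here, and no sequence is shown.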

Additional observations from a re-analysis of the deposited data

Results flagged for a closer look

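CG6125 differed in opposite directions between cell types of Yki flies against EGT > w1118. The nuclei named renal stem cells had a log2 ratio of 1.38, whereas upper ureter PCs had -1.0, initial and transitional PCs -1.24, stellate cells -1.68, lower tubule PCs -1.79 and lower ureter PCs -3.08, each with an interval on its own side of 0. The renal stem cell value rests on 25 UMIs in 30 nuclei. The lower ureter value rests on 3 UMIs against 25, and the controls differed there by -1.46. The difference between the cell types was not tested, since each genotype had 1 library.

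Prestin likewise had a log2 ratio of 1.24 in main segment PCs 2, from 125 UMIs against 6, and of -1.2 in lower tubule PCs. This difference was not tested either, and the level of Prestin in main segment PCs 2 was at most 0.31 UMIs per 10000.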

How the results depend on the processing

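Of 117 values of members, 41 were past the 2-fold limit, and of their 336 alternative values 286 were past it in the same direction, 49 were under it in the same direction and 1 was reversed. The reversed value was CG6125 in main segment PCs of the PCts > Pvr RNAi-labelled library, at -0.37 against the other control library. Prestin in lower tubule PCs of Yki flies was -0.79 against the other control and -0.72 as the log2 ratio of means over nuclei with a pseudocount of 1. Prestin in PCts > Pvr act was -0.0015 when 3 cell types with few Prestin UMIs weighed the same. It was -2.57 without the cluster named lower segment PCs 2 (Pvr-act), an alternative chosen after seeing the data. CG5002 in upper ureter PCs of the PCts > Pvr RNAi-labelled library was 0.63 with a pseudocount of 1 and 1.00 with 0.1. CG9702 in initial and transitional PCs of Yki flies was -0.75 against the other control. CG7912 was below the limit in most comparisons with a pseudocount of 1, which exceeds most of its levels. The causes of the other changes were not tested.

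Over all nuclei, the count of all genes called was 142 in Yki flies, 692 for Pvr activation, 18 for the PCts > Pvr RNAi-labelled library and 39 between the controls with means over nuclei and a pseudocount of 1, and 533, 1969, 148 and 174 with a pseudocount of 0.1, against 1748, 4998, 844 and 849 as reported. It was 2765, 1697 and 1789 without a filter on UMIs in Yki flies, the PCts > Pvr RNAi-labelled library and the controls, and 1128, 430 and 412 with at least 100 UMIs. Giving 11 cell types equal weight, it was 1672 between the controls. The share of lower tubule nuclei with a Prestin UMI was 13.6%, 7.41%, 13.1% and 18.2% at 500 UMIs, 28.4%, 17.0%, 20.5% and 30.2% at 1000 UMIs, and 82.4%, 57.0%, 77.9% and 93.1% without thinning. With Pearson correlation of log2 levels, 3 of the 5 genes most like Prestin and 1 of the 3 most like CG7912 were shared. No paired analysis was possible because each genotype had 1 library. Depth limits CG6928 and CG7912 most, and no alternative measures the spread between flies.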
